A study of Canis lupus familiaris with 60 samples.

Results

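CCL2, CCL8 and CCL13 are chemokines of the CC family that are also known as monocyte chemoattractant proteins, and their genes were followed here through the skin biopsies of a patch test with house dust mite allergen. They were chosen by name and found on the array through the transcript identifiers of 3 genes, which gave 6 of 60068 probes and 39 of 61657 spots. Each gene had 1 catalogue probe printed once and 1 custom probe printed 12 times. All 6 probes passed the filter on dim spots.

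Chemokines are small secreted proteins that bind receptors on leukocytes and direct their movement along a concentration gradient. CCL2 acts mainly through the receptor CCR2 on monocytes and memory T cells, whereas CCL8 and CCL13 bind several CC receptors, among them CCR3, which is found on eosinophils and basophils. In skin they are made by keratinocytes, fibroblasts, endothelial cells and macrophages, and their transcription is induced by cytokines such as tumor necrosis factor and interleukin 1 through NF-κB.

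The biopsies came from 12 Beagle dogs aged 2 to 3 years, of which 6 (4 males, 2 females) had been sensitized to Dermatophagoides farinae through the skin and 6 (2 males, 4 females) had not. From every dog 5 sites were sampled, namely untreated skin (0 hr) and sites under an allergen or a saline patch (6 hr and 24 hr), which made 10 groups of 6 biopsies each. Allergen was applied as 75 mg of mite paste and the control patch carried 50 µl of saline. All dogs had been clipped 4 days before patching, all biopsies were 8-mm punches taken under local lidocaine, and the dogs wore bandages and a mesh suit. At 6 hr the bandages were changed and the allergen patch was put back on the same site, and the 24 hr biopsies were taken from dogs that had already been biopsied 3 times. The model therefore had no unbandaged or unwounded control after 0 hr. The 24 hr allergen biopsy of sensitized dog 2839 was left out, which left 59 one-color arrays and 5 biopsies in that group. The study left out the same biopsy for its low signal, its poor correlation with the other arrays and the poor integrity of its RNA.

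Levels are log2 intensities after variance-stabilizing normalization, and a difference of 1 is 2-fold. Overlap of ranges is given for CCL2, CCL8 and CCL13 only, and the share of all probes without overlap was not counted. A probe was called a DEG (differentially expressed gene) when limma's adjusted p over 45972 probes was below 0.05 and the difference was at least 1.5-fold. Median processed signals of the 59 arrays lay between 81.7 and 146.12, and 68.85% to 80.15% of spots were well above background. Each of the 6 probes had at least 1 spot well above background on every array. The arrays were on 8 slides, 5 of which held a single time point, so differences between time points were largely differences between slides, whereas most allergen and saline biopsies of a time point shared slides. The exceptions were 4 allergen biopsies on 2 slides that held no saline biopsy. Between the dog groups, 6 hr allergen biopsies shared no slide. Of the 6 hr saline biopsies of nonsensitized dogs, 2 and 1 were on slides without an allergen biopsy from that group. P-values rest on a residual spread of each probe pooled over the 10 groups, with the biopsies of a dog treated as independent. They do not measure the spread of the within-dog differences. In whole skin, a change in the number of cells that make a transcript and a change in RNA per cell cannot be told apart.

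Each gene was reported by the brighter of its probes: NM_001003297 for CCL2, NM_001005255 for CCL8 and ENSCAFT00000037424 for CCL13, the last of which was named in the study's own gene list and not in RefSeq. The other probes were ENSCAFT00000029149 for CCL2, ENSCAFT00000029147 for CCL8 and NM_001003966 for CCL13. Over the 59 arrays the probe pair of CCL2 correlated at r = 0.9997 and that of CCL13 at r = 0.9933. The probe pair of CCL8 correlated at r = 0.7557. The brighter CCL8 probe lay closer to CCL2 (r = 0.984) than to the other CCL8 probe, also after the group means were subtracted (0.9662 against 0.7745). These correlations describe arrays that share dogs, slides and patch sites. Whether the brighter CCL8 probe also binds CCL2 transcripts was not tested, so the other CCL8 probe is given below wherever its call differed from that of the brighter one.

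**Figure D1:**
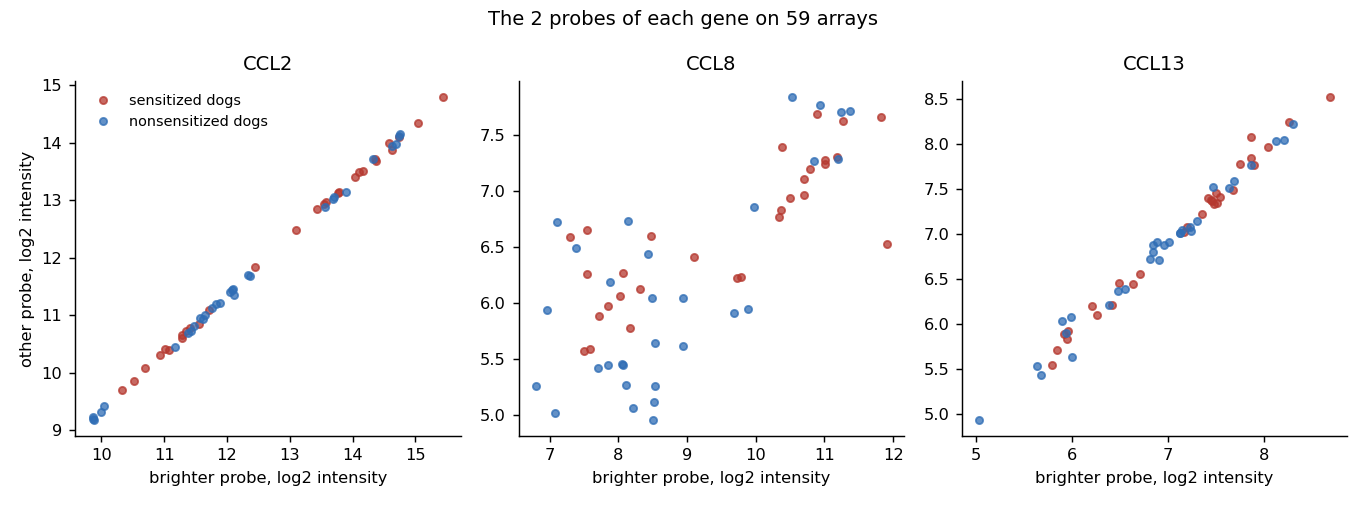
Brighter probe (horizontal) against the other probe (vertical) of each gene, in log2 normalized intensity, with 1 point for each of the 59 arrays. The points of CCL2 and CCL13 lie close to a line, and those of CCL8 scatter widely.

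In untreated skin, before any patch, the question was whether the dog groups already differed. CCL2 in sensitized dogs ranged from 10.32 through a median of 10.85 to 11.55, and in nonsensitized dogs from 9.86 through 9.94 to 11.42. CCL8 ranged from 7.30 through 7.70 to 8.47 in sensitized dogs and from 6.80 through 7.10 to 8.14 in nonsensitized dogs. CCL13 ranged from 5.79 through 5.93 to 6.20 and from 5.04 through 5.81 to 6.00, respectively. The ranges overlapped for every gene, and in nonsensitized dogs the highest CCL2 value, from dog 2847, stood apart from the other 5, which were at or below 10.04. Sensitized minus nonsensitized differences were 0.72 for CCL2 (95% interval -0.12 to 1.56), 0.56 for CCL8 (-0.28 to 1.41) and 0.23 for CCL13 (-0.23 to 0.69). None was called (limma, adjusted p = 1 for each), and 0.00218% of all probes were called in this comparison. Within the slide that held 2 sensitized and 5 nonsensitized biopsies the CCL2 difference was 0.73, and within the slide that held 3 and 1 it was -0.50. The array of dog 2847 was one of 2 whose signals were deposited as whole numbers. Without these 2 arrays the CCL2 difference was 0.97 (limma, adjusted p = 0.9999).

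**Figure D2:**
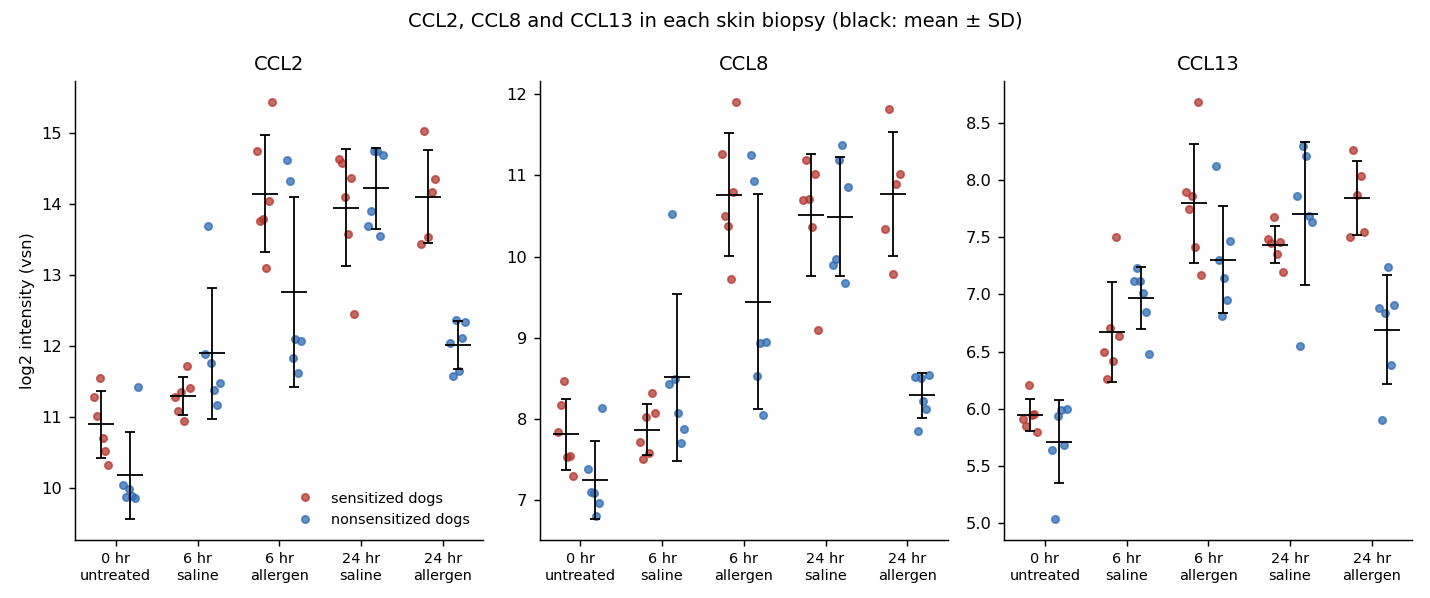
Level of CCL2, CCL8 and CCL13 (log2 normalized intensity, vertical axis) in each biopsy by group, with the group mean and SD as bars. All 3 genes lay high at the allergen sites of sensitized dogs at 6 and 24 hr and in saline-treated skin of both dog groups at 24 hr, and lower in allergen-treated skin of nonsensitized dogs at 24 hr.

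At 6 hr after patching, all 3 genes were higher in allergen-treated than in saline-treated skin of sensitized dogs, CCL2 by 7.21-fold, CCL8 by 7.42-fold and CCL13 by 2.18-fold. CCL2 in allergen-treated skin ranged from 13.10 through a median of 13.91 to 15.44 (mean 14.15 ± 0.83, SD, n = 6). In saline-treated skin it ranged from 10.94 through 11.32 to 11.72 (11.30 ± 0.27, n = 6). The 2 sets were separated by 1.38, and the processed signal, before normalization, had medians of 17174 and 2454. CCL8 ranged from 9.73 through 10.64 to 11.90 at allergen sites and from 7.50 through 7.87 to 8.32 at saline sites, a gap of 1.41. CCL13 ranged from 7.17 through 7.80 to 8.68 at allergen sites and from 6.26 through 6.56 to 7.50 at saline sites. Its ranges overlapped only through the saline biopsy of dog 2853, the highest at 7.50, the other 5 being at or below 6.71.

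The fitted allergen minus saline differences in sensitized dogs at 6 hr were 2.85 for CCL2 (SE 0.42, limma, adjusted p = 6.04e-05), 2.89 for CCL8 (SE 0.42, adjusted p = 6.04e-05) and 1.13 for CCL13 (SE 0.23, adjusted p = 0.00789). All 3 genes were called higher, where 0.405% of all probes were. Counted from the most positive difference, CCL8 and CCL2 were probes 6 and 7 of the 45972 tested and CCL13 was probe 140. Within each dog the allergen site was above the saline site in 6 of 6 dogs for every gene, by 2.16 to 4.03 for CCL2, by 2.14 to 3.83 for CCL8 and by 0.54 to 1.48 for CCL13. The differences were also present within slides: on the slide with 3 allergen and 3 saline biopsies they were 2.31, 2.33 and 1.11 for CCL2, CCL8 and CCL13, and on that with 2 and 3 biopsies 3.83, 3.82 and 1.07. The other CCL8 probe gave 1.07, which was not called (limma, adjusted p = 0.213). CCL13 was not called when 6 hr biopsies were fitted alone (1.13, limma, adjusted p = 0.119), without dog 2838 (1.07, adjusted p = 0.119) or without dog 2839 (1.05, adjusted p = 0.0621).

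In nonsensitized dogs at 6 hr the same comparison gave no call. CCL2 at allergen sites ranged from 11.62 through a median of 12.09 to 14.63, and at saline sites from 11.18 through 11.62 to 13.70. CCL8 ranged from 8.05 through 8.94 to 11.25 at allergen sites and from 7.71 through 8.25 to 10.52 at saline sites. CCL13 ranged from 6.81 through 7.22 to 8.13 and from 6.48 through 7.06 to 7.23. The ranges overlapped for every gene, and the spread came largely from few dogs. Dogs 2704 and 2716 had the high allergen values (CCL2 at 14.63 and 14.33, CCL8 at 11.25 and 10.93), whereas the other 4 were at or below 12.10 for CCL2, and dog 2716 also had the high saline values. The differences were 0.87 for CCL2 (95% interval 0.03 to 1.70, limma, adjusted p = 0.911), 0.92 for CCL8 (0.08 to 1.77, adjusted p = 0.907) and 0.33 for CCL13 (-0.13 to 0.80, adjusted p = 0.958). No more than 0.0348% of all probes were called higher here. Within dogs the allergen site was above the saline site in 6 of 6 dogs for CCL2 and CCL8 and in 5 of 6 for CCL13. By the other CCL8 probe it was above in 3 of 6 dogs, with a mean difference of 0.08.

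Whether the response to allergen differed between the dog groups at 6 hr was tested directly with the interaction, the sensitized minus the nonsensitized difference. It was 1.98 for CCL2 (SE 0.59, unadjusted p = 0.00147 and adjusted p = 1 by limma), 1.97 for CCL8 (unadjusted p = 0.00168) and 0.79 for CCL13 (unadjusted p = 0.0183). None was called, and limma called 0% of the 45972 probes in this comparison, in either direction, of which 523 had an unadjusted p below 0.05. CCL2 and CCL8 were the probes at places 6 and 7 of all when counted from the most positive interaction.

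**Figure D3:**
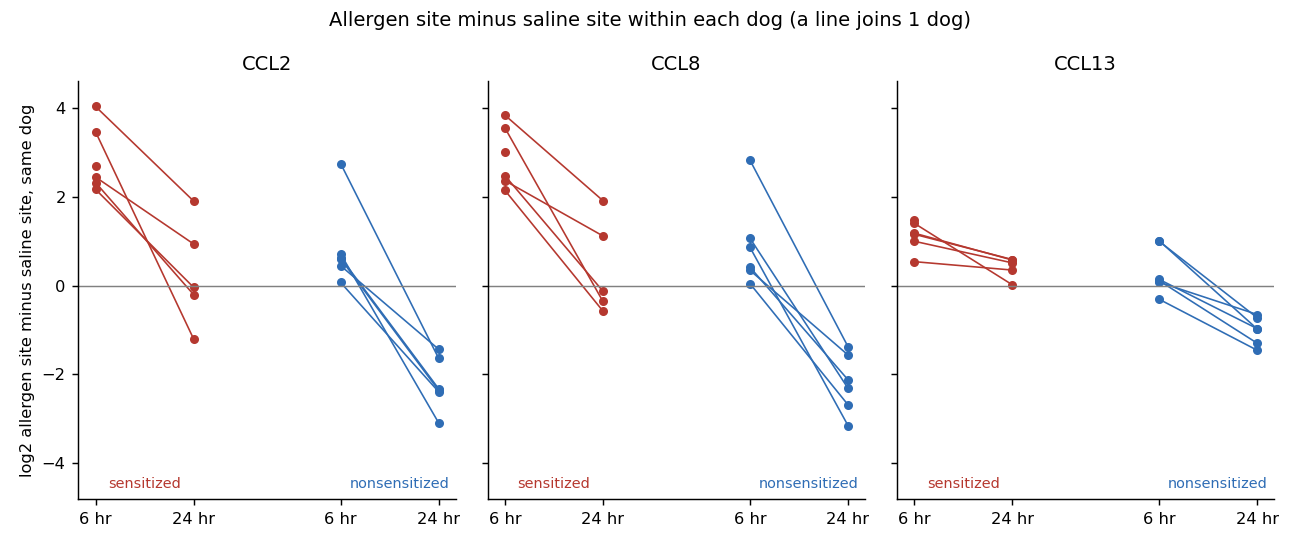
Allergen minus saline difference (log2 normalized intensity, vertical axis) at 6 and 24 hr for each dog, with a line joining the values of 1 dog, by gene and dog group. All sensitized dogs were above 0 at 6 hr, and all nonsensitized dogs were below 0 at 24 hr for all 3 genes.

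By 24 hr the pattern was different. In sensitized dogs none of the 3 genes was called between allergen-treated and saline-treated skin, while in nonsensitized dogs allergen-treated skin was lower than saline-treated skin, by 4.61-fold for CCL2, 4.59-fold for CCL8 and 2.02-fold for CCL13. The 5 sensitized allergen biopsies had CCL2 at 13.43, 13.54, 14.16, 14.35 and 15.04, against 12.45 through a median of 14.23 to 14.63 at the 6 saline sites. CCL8 was at 9.79, 10.34, 10.89, 11.01 and 11.82 against 9.10 through 10.70 to 11.18 in saline-treated skin. CCL13 was at 7.50, 7.54, 7.86, 8.03 and 8.26 against 7.19 through 7.45 to 7.67. The allergen and saline ranges overlapped for every gene. The differences were 0.15 for CCL2 (95% interval -0.73 to 1.03, limma, adjusted p = 0.978), 0.26 for CCL8 (-0.62 to 1.14, adjusted p = 0.95) and 0.40 for CCL13 (-0.08 to 0.89, adjusted p = 0.583), with 0.174% of all probes called higher. Within dogs, CCL2 and CCL8 were higher at the allergen site in 2 of 5 dogs and CCL13 in 5 of 5, by 0.02 to 0.59.

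In nonsensitized dogs at 24 hr, CCL2 at allergen sites ranged from 11.58 through a median of 12.08 to 12.36 (12.01 ± 0.33, n = 6). At saline sites it ranged from 13.55 through 14.30 to 14.75 (14.22 ± 0.57, n = 6). The 2 sets were separated by 1.19, and their median processed signals were 5234 and 24479. CCL8 ranged from 7.85 through 8.36 to 8.54 at allergen sites and from 9.68 through 10.41 to 11.37 at saline sites, a gap of 1.14. CCL13 ranged from 5.90 through 6.86 to 7.24 and from 6.55 through 7.77 to 8.30. The CCL13 ranges met only because the saline site of dog 2716 was at 6.55, the other 5 being at or above 7.63.

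Allergen minus saline differences in nonsensitized dogs at 24 hr were -2.21 for CCL2 (SE 0.42, limma, adjusted p = 0.0015), -2.20 for CCL8 (SE 0.42, adjusted p = 0.00171) and -1.01 for CCL13 (SE 0.23, adjusted p = 0.01). All 3 genes were called lower, where 0.659% of all probes were. The allergen site was below the saline site in 6 of 6 dogs for each gene. Of the 6 allergen biopsies 4 were on the slide that also held 3 of the saline biopsies, and within this slide the differences were -1.95 for CCL2, -1.91 for CCL8 and -0.78 for CCL13. With slide as a block they were -2.21, -2.16 and -0.92, and all 3 calls remained. The other CCL8 probe was also called lower, by 2.99-fold (limma, adjusted p = 0.012). The CCL13 call was lost without dog 2800 (-0.93, limma, adjusted p = 0.0892), dog 2802 (-1.02, adjusted p = 0.0583) or dog 2845 (-0.96, adjusted p = 0.0698).

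The interaction at 24 hr, on which the study's own list of DEG rested, was positive for all 3 genes. It was 2.36 for CCL2 (SE 0.61, 5.13-fold, limma, adjusted p = 0.0362), 2.46 for CCL8 (SE 0.61, 5.5-fold, adjusted p = 0.0287) and 1.42 for CCL13 (SE 0.33, 2.67-fold, adjusted p = 0.0205). Each was called, where 0.6% of all probes were called higher. The study counted all 3 among its DEG from the same comparison of these arrays, so the calls are not independent of its list. The interaction is the sensitized difference minus the nonsensitized one, and its parts were 0.15 and -2.21 for CCL2, 0.26 and -2.20 for CCL8, and 0.40 and -1.01 for CCL13. With slide as a block CCL2 (2.19, limma, adjusted p = 0.0417) and CCL13 (1.15, adjusted p = 0.0365) were called and CCL8 was not (2.11, adjusted p = 0.0557). The other CCL8 probe gave 1.73, which was not called (limma, adjusted p = 0.0848), and without a filter on dim probes CCL2 was not called (2.39, adjusted p = 0.0605).

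The interaction calls at 24 hr did not hold without some of the dogs. Leaving out 1 dog at a time gave interactions of 2.00 to 2.66 for CCL2 (limma, adjusted p = 0.0194 to 0.176), and the call was lost without sensitized dog 2839, 2840, 2853 or 2855 or nonsensitized dog 2800, 2802 or 2847. For CCL8 they ran from 2.12 to 2.68 (adjusted p = 0.0135 to 0.156), with the call lost without dog 2840, 2855, 2800, 2802 or 2847. For CCL13 they ran from 1.33 to 1.51 (adjusted p = 0.00723 to 0.0841), with the call lost without dog 2840, 2855, 2800, 2802 or 2845.

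**Figure D4:**
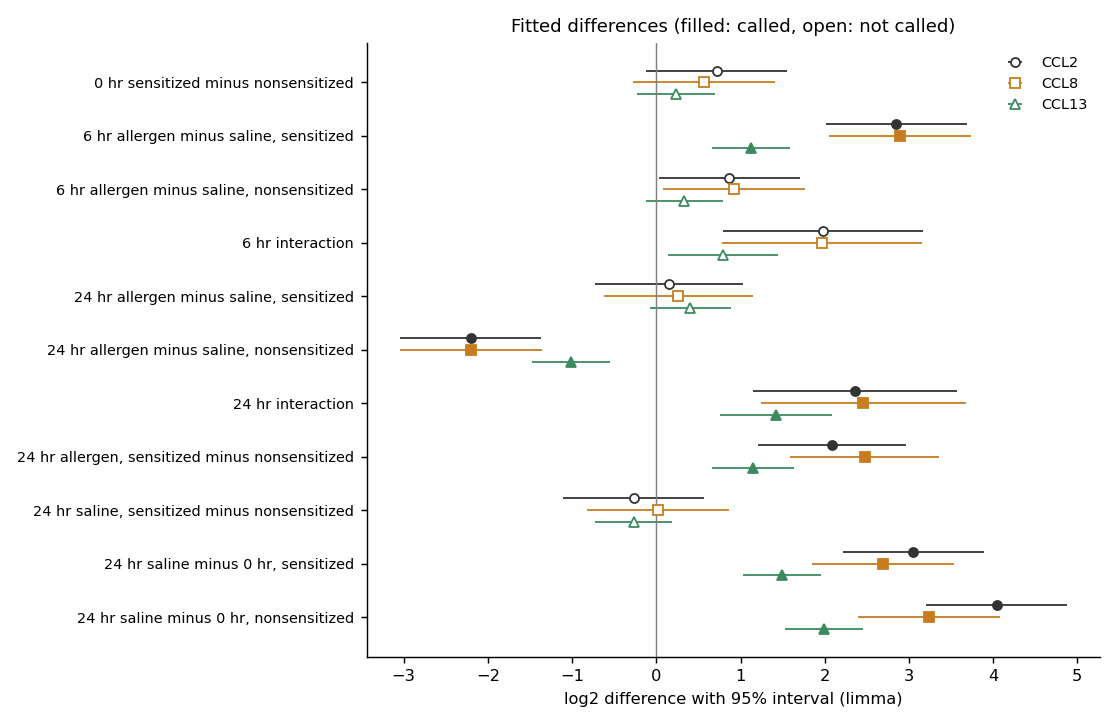
Fitted differences (log2, horizontal axis) of CCL2, CCL8 and CCL13 with 95% intervals by comparison, where filled points were called by limma. The 6 hr allergen minus saline differences of sensitized dogs lie above 0 and the 24 hr differences of nonsensitized dogs lie below 0.

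Setting the dog groups against each other at one kind of site showed where the groups parted. At 24 hr in allergen-treated skin, sensitized dogs were above nonsensitized dogs by 2.09 for CCL2 (SE 0.44, 4.26-fold, limma, adjusted p = 0.000621), by 2.48 for CCL8 (5.57-fold, adjusted p = 9.7e-05) and by 1.15 for CCL13 (2.22-fold, adjusted p = 0.000627). The sets did not overlap for any gene, with gaps of 1.07, 1.25 and 0.26, and 3.58% of all probes were called higher. The other CCL8 probe was called too, at 3.67-fold (limma, adjusted p = 0.000487). With slide as a block CCL13 was not called (0.71, limma, adjusted p = 0.0929). In saline-treated skin at 24 hr the differences were -0.27 for CCL2 (95% interval -1.11 to 0.57), 0.02 for CCL8 (-0.83 to 0.86) and -0.27 for CCL13 (-0.73 to 0.19). These sets overlapped and none of the genes was called, against 0.568% of all probes called lower (261 probes) and 833 probes called higher.

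At 6 hr the sensitized minus nonsensitized difference in allergen-treated skin was 1.38 for CCL2 (limma, adjusted p = 0.512), 1.32 for CCL8 (adjusted p = 0.564) and 0.49 for CCL13 (adjusted p = 0.8). In saline-treated skin it was -0.60, -0.65 and -0.30 for CCL2, CCL8 and CCL13 (adjusted p = 0.9998 for each). All ranges overlapped. Limma called 0% of all probes, in either direction, in either comparison, with 2834 and 1623 probes at an unadjusted p below 0.05.

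The level in saline-treated skin was not constant over time, which bears on the allergen minus saline differences above. At 24 hr saline-treated skin was above untreated skin in 6 of 6 dogs of each group for all 3 genes. In sensitized dogs it was higher by 8.30-fold for CCL2 (3.05, limma, adjusted p = 8.75e-07), 6.49-fold for CCL8 (2.70, adjusted p = 6.83e-06) and 2.81-fold for CCL13 (1.49, adjusted p = 5.88e-06), where 4.36% of all probes were called higher. In nonsensitized dogs it was higher by 16.5-fold for CCL2 (4.04, adjusted p = 2.83e-10), 9.47-fold for CCL8 (3.24, adjusted p = 2.65e-08) and 3.98-fold for CCL13 (1.99, adjusted p = 3.11e-09), where 9.89% were. By the brighter probes the biopsies at 24 hr and at 0 hr did not overlap for any gene in either group, and they shared no slide. By the other CCL8 probe the 24 hr saline site was above untreated skin in 5 of 6 sensitized and 4 of 6 nonsensitized dogs. Within dogs the rise of CCL13 in sensitized dogs varied little, from 1.40 to 1.60, whereas that of CCL2 ran from 2.13 to 3.85 there and from 3.27 to 4.86 in nonsensitized dogs. In nonsensitized dogs CCL2 was the probe at place 5 of all by the size of this rise, and CCL8 that at place 17.

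At 6 hr the saline sites had moved less. In sensitized dogs CCL2 (0.40, limma, adjusted p = 0.578) and CCL8 (0.06, adjusted p = 0.949) overlapped with untreated skin and were not called, and CCL13 was called higher by 1.65-fold (0.72, adjusted p = 0.0315), where 0.191% of all probes were. In nonsensitized dogs all 3 were called higher, where 0.328% of all probes were: CCL2 by 3.29-fold (adjusted p = 0.00683), CCL8 by 2.41-fold (adjusted p = 0.0435) and CCL13 by 2.38-fold (adjusted p = 0.000806). The CCL13 call in sensitized dogs was lost under 5 of 12 alternative settings, among them its other probe (0.67, limma, adjusted p = 0.05), and without dog 2840, 2841, 2853 or 2855 (0.56 to 0.77, adjusted p = 0.0626 to 0.135). The CCL2 call in nonsensitized dogs was lost without dog 2716 (1.30, limma, adjusted p = 0.0672), and the CCL8 call under 6 of 12 settings, among them its other probe (0.20, adjusted p = 0.773), and without any one of 8 dogs, at its lowest without dog 2716 (0.84, adjusted p = 0.255). From 6 to 24 hr saline sites rose further by 6.30-fold for CCL2, 6.24-fold for CCL8 and 1.70-fold for CCL13 in sensitized dogs (limma, adjusted p = 4.35e-05, 5.21e-05 and 0.0253), with 1.66% of all probes called higher. In nonsensitized dogs they rose by 5.01-fold, 3.93-fold and 1.67-fold (adjusted p = 4.42e-05, 0.000339 and 0.0111), with 4.38% called higher. Of these, the CCL13 calls were lost without dog 2838, 2839, 2840 or 2841 in sensitized dogs (0.68 to 0.73, adjusted p = 0.0801 to 0.112) and without dog 2800 or 2847 in nonsensitized dogs (both 0.65, adjusted p = 0.0505 and 0.0574).

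By the brighter probes, allergen-treated skin was above untreated skin at both times and in both groups for all 3 genes. The other CCL8 probe was not called, with 0.68 at 6 hr and 0.82 at 24 hr in sensitized dogs (limma, adjusted p = 0.193 and 0.0831). In nonsensitized dogs it gave 0.28 and -0.77 (limma, adjusted p = 0.689 and 0.0793). In sensitized dogs CCL2 was higher by 9.50-fold at 6 hr (limma, adjusted p = 1.55e-06) and 9.23-fold at 24 hr (adjusted p = 2.2e-07), CCL8 by 7.72-fold and 7.77-fold, and CCL13 by 3.60-fold and 3.72-fold, where 2.21% and 7.61% of all probes were called higher. From 6 to 24 hr no gene was called there, with differences of -0.04 for CCL2, 0.01 for CCL8 and 0.05 for CCL13 (adjusted p = 0.977, 0.9963 and 0.95), and 1.47% of probes called higher. In nonsensitized dogs CCL2 was above untreated skin by 6.00-fold at 6 hr (adjusted p = 0.000179) and 3.57-fold at 24 hr (adjusted p = 0.00033), CCL8 by 4.57-fold and 2.06-fold, and CCL13 by 3.01-fold and 1.97-fold, where 1.04% and 5.73% of all probes were called higher. From 6 to 24 hr CCL8 fell by 1.15 (2.22-fold, adjusted p = 0.0344) and CCL13 fell by 0.61 (1.53-fold, adjusted p = 0.04), where 5.84% of all probes were called lower. CCL2 differed by -0.75 (adjusted p = 0.179). The CCL8 fall was not called without dog 2704 or 2716 (-0.83 and -0.76, adjusted p = 0.181 for each), nor that of CCL13 without dog 2704, 2716, 2845 or 2847 (-0.45 to -0.62). The 24 hr CCL8 rise over untreated skin in nonsensitized dogs was not called without dog 2704, 2800, 2802 or 2845 (0.97 to 1.03, adjusted p = 0.0603 to 0.0962).

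Since slides and time points largely coincided, the comparisons over time were repeated with slide as a block. Of the 36 comparisons over time, gene by gene, 30 were called without the block, 16 with slide as a fixed block and 22 with slide as a random block. With the fixed block the rises over untreated skin in nonsensitized dogs were not called at 6 hr for either site or at 24 hr for allergen sites, for example 2.00 for CCL2 in 6 hr allergen-treated skin (limma, adjusted p = 0.421). The 24 hr minus 6 hr differences at nonsensitized allergen sites, of which those of CCL8 and CCL13 had been called lower, turned to 0.49 for CCL2, 0.45 for CCL8 and 0.25 for CCL13 under it. The other CCL8 probe was called higher than untreated skin in no group. At 24 hr its rise in saline-treated skin was 0.67 in sensitized dogs (limma, adjusted p = 0.155) and 0.81 in nonsensitized dogs (adjusted p = 0.0595), and in 24 hr allergen-treated skin of nonsensitized dogs it was -0.77 (adjusted p = 0.0793). Nor was the other CCL8 probe called from 6 to 24 hr at saline sites, with 1.06 in sensitized dogs (limma, adjusted p = 0.0541) and 0.60 in nonsensitized dogs (adjusted p = 0.209).

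By group mean, CCL2 was lowest in untreated skin of nonsensitized dogs (10.18 ± 0.61), followed by untreated skin of sensitized dogs (10.90 ± 0.47), the 6 hr saline sites of sensitized (11.30 ± 0.27) and nonsensitized dogs (11.90 ± 0.92), and the nonsensitized allergen sites at 24 hr (12.01 ± 0.33) and 6 hr (12.76 ± 1.34). Highest were the 24 hr saline sites of sensitized dogs (13.95 ± 0.83), the sensitized allergen sites at 24 hr (14.11 ± 0.65) and 6 hr (14.15 ± 0.83), and the 24 hr saline sites of nonsensitized dogs (14.22 ± 0.57). Each group overlapped with its neighbors in this order. For CCL8 the 4 highest groups were the same, with means between 10.49 and 10.77, and neighboring groups overlapped as well. For CCL13 the same 4 groups were again highest, with means between 7.44 and 7.84, and of all neighbors in its order only untreated skin of sensitized dogs (5.94 ± 0.14) and their 6 hr saline sites (6.67 ± 0.44) did not overlap.

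Of 1284 other named genes, those whose 10 group means were most like CCL2 were PPRC1 (r = 0.9864), ADAMTS4 (0.9827), ADAMTS1 (0.9824), IL6 (0.9823) and TNFAIP6 (0.98). For CCL8 they were TNFAIP6 (0.991), IL6 (0.9873), ADAMTS1 (0.9815), ADAMTS4 (0.9804) and ICAM1 (0.9791). CCL13 was most like HSPA4 (0.9885), HNRNPAB (0.9874), CHORDC1 (0.9794), ABCF2 (0.9791) and MGAT2 (0.9744), and shared none of its 5 with the other genes. ADAMTS1 and ADAMTS4 are proteases of the extracellular matrix, TNFAIP6 is a secreted hyaluronan-binding protein and HSPA4 is a heat shock protein. IL6, ICAM1 and HSPA4 were named by RefSeq and the others only by the study's list of DEG at 24 hr, so the genes compared were in part chosen on these arrays. IL6 was well above background on 0 of 6 arrays in untreated skin of each dog group and in 6 hr saline-treated skin of sensitized dogs. It was so on 1 of 6 at 6 hr saline and at 24 hr allergen sites of nonsensitized dogs. Its correlations therefore rest in part on values near the floor. The group means share dogs and slides, and the correlations are descriptions.

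Of 16 other CC chemokines listed, 12 passed the filter. Between allergen and saline sites at 6 hr in sensitized dogs 1 of 12 was called, where 0.405% of all probes were: CCL20, which attracts dendritic and Th17 cells through CCR6, was higher by 6.73-fold (limma, adjusted p = 0.00165). At 24 hr 1 of 12 was called in each dog group, where 0.174% of all probes were higher in sensitized and 0.659% lower in nonsensitized dogs. CCL17, a ligand of CCR4 on Th2 cells, was higher in allergen-treated skin of sensitized dogs by 7.30-fold (adjusted p = 0.0211), and CCL19, a ligand of CCR7, was lower in that of nonsensitized dogs by 2.72-fold (adjusted p = 0.00272). The 24 hr interaction called 2 of 12, where 0.6% of all probes were, CCL19 (1.97, adjusted p = 0.0132) and CCL3 (adjusted p = 0.0495), with a median of 0.93 over the 12 and of -0.0042 over all probes. With dog as a block 5 of 12 were called, as were 3.54% of all probes in either direction, against 0.942% without the block. CCL3 was named by the study's list and was well above background on 3 of 6 nonsensitized allergen arrays, so no exact size is given. CCL7, the gene between CCL8 and CCL2 in the RefSeq gene order CCL13, CCL8, CCL7, CCL2, had differences of 1.39 at 6 hr in sensitized dogs (adjusted p = 0.0757) and -0.32 at 24 hr in nonsensitized dogs (adjusted p = 0.91), and its 24 hr interaction was 0.62 (adjusted p = 0.713). In 24 hr saline-treated skin CCL7 was above untreated skin by 1.06 in sensitized dogs (adjusted p = 0.0256) and by 1.28 in nonsensitized dogs (adjusted p = 0.00387). Against untreated skin, 5 of 12 were called higher in 6 hr allergen-treated skin of sensitized dogs (2.21% of all probes) and 8 of 12 at 24 hr (7.61%). In nonsensitized dogs these were 5 of 12 (1.04%) and 3 of 12 (5.73%). In 24 hr saline-treated skin 4 of 12 were called higher in sensitized dogs (4.36%) and 5 of 12 in nonsensitized dogs (9.89%). In each of these comparisons but the 6 hr nonsensitized one, 1 of 12 was called lower. Of all 45972 probes, those called lower numbered 766 at 6 hr and 2826 at 24 hr in allergen-treated skin of sensitized dogs. In nonsensitized dogs 5189 were called lower in 24 hr allergen-treated skin. In 24 hr saline-treated skin 2372 were in sensitized and 5908 in nonsensitized dogs. In 24 hr allergen-treated skin 5 of 12 were higher in sensitized than in nonsensitized dogs, where 3.58% of all probes were.

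**Figure D5:**
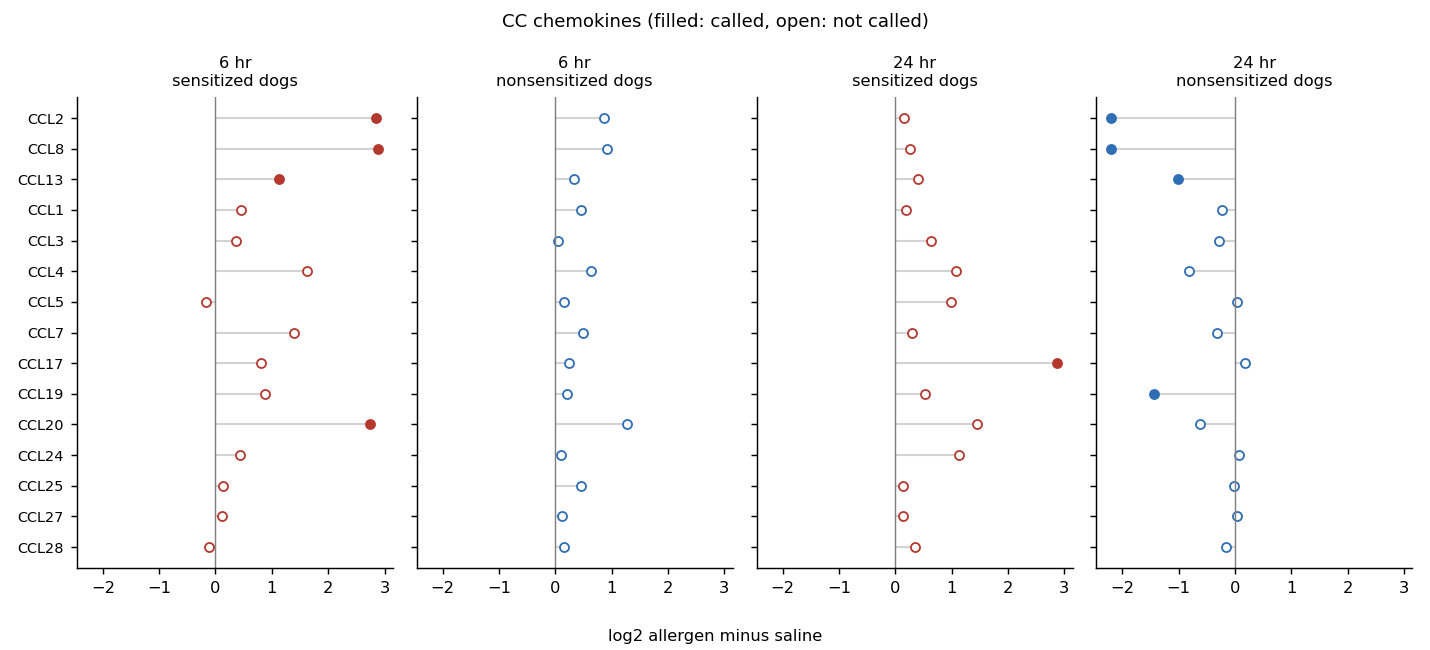
Fitted allergen minus saline difference (log2, horizontal axis) of CCL2, CCL8 and CCL13 and 12 other CC chemokines, in 4 panels by dog group and time, where filled points were called by limma and grey lines run from 0 to each point. CCL2 and CCL8 lie far to the right at 6 hr in sensitized dogs and far to the left at 24 hr in nonsensitized dogs.

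Among the receptors of these chemokines, CCR1 and CCR3 are reported here, and CCR2, the main receptor of CCL2, was not named on the array. Neither CCR1 nor CCR3 was called in the allergen minus saline comparisons or the interactions. The 24 hr interaction was 0.67 for CCR1 (limma, adjusted p = 0.116) and had an adjusted p of 0.112 for CCR3 (limma), and with dog as a block both were called. In 24 hr allergen-treated skin both were called higher in sensitized dogs, where 3.58% of all probes were, CCR1 by 0.59 (adjusted p = 0.00664) and CCR3 with an adjusted p of 0.0434. CCR3 was well above background on 1 of 6 nonsensitized and 5 of 5 sensitized arrays of that site, so no exact size is given.

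Of 27 listed cytokines, receptors and signaling genes that induce these chemokines, 13 were tested. At 6 hr in sensitized dogs 3 of 13 were higher (0.405% of all probes), with a median of 0.51 over the list: IL6, which was not well above background at any saline site and was therefore higher by at least 4.50-fold (limma, adjusted p = 0.00283), BCL3, a regulator of NF-κB (0.83, adjusted p = 0.00129), and TNFRSF1A, a receptor of tumor necrosis factor (0.66, adjusted p = 0.0119). At 24 hr in nonsensitized dogs 6 of 13 were lower (0.659% of all probes), with a median of -0.58: TNFRSF1A, IL6, IFNGR2, IL33, BCL3 and STAT3. Among them the alarmin IL33 differed by -1.78 (adjusted p = 0.0252), and IL6 was called lower (adjusted p = 0.00475), with 1 of 6 allergen and 6 of 6 saline arrays well above background, so that no exact size is given. The 24 hr interaction called IL6 (adjusted p = 0.0404, resting on the same group) and TNFRSF1A (0.81, adjusted p = 0.0331) higher, where 0.6% of all probes were, with a median of 0.71, and with dog as a block 8 of 13 were called (3.54% of all probes). Over the 9 members named by RefSeq, 2 were called at 24 hr in nonsensitized dogs, with a median of -0.26, and 1 in the interaction, with a median of 0.39. In 24 hr saline-treated skin IL6 was above untreated skin by at least 4.44-fold in sensitized and at least 5.57-fold in nonsensitized dogs. Over all 45972 probes the medians of the 6 hr sensitized, 24 hr nonsensitized and interaction comparisons were -0.0012, 0.0064 and -0.0042. TNFRSF1A, IFNGR2, BCL3 and STAT3 were named by the study's list, which was selected on the 24 hr interaction, so their direction there is not independent.

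Markers of monocytes and macrophages moved with the chemokines in part. Of 11 listed, 5 were measured (CD14, CD163, MRC1, AIF1 and FCGR3A), and all but CD163 were named by the study's list. At 6 hr in sensitized dogs CD14 was higher (1.12, limma, adjusted p = 0.0161) and the other 4 were not called, where 0.405% of all probes were higher. At 24 hr in nonsensitized dogs MRC1 (-0.97, adjusted p = 0.0107) and FCGR3A (adjusted p = 0.0199) were called lower in allergen-treated skin, where 0.659% of all probes were. In the interaction MRC1 (1.61, adjusted p = 0.00896) and FCGR3A (adjusted p = 0.014) were called, but both entered through the study's list, which was selected on that interaction, and CD163, the marker named by RefSeq, was not called. FCGR3A was well above background on 2 of 6 of these allergen arrays and 4 of 6 saline arrays, so no exact size is given. All 5 were higher in 24 hr saline-treated than in untreated skin in both dog groups, where 4.36% of all probes were in sensitized and 9.89% in nonsensitized dogs, and FCGR3A was not well above background on any untreated array. The mean level of the 5 markers was 8.16 to 8.64 at allergen sites and 7.63 to 8.39 at saline sites of sensitized dogs at 6 hr, and 8.42 to 9.00 at allergen sites and 8.85 to 9.79 at saline sites of nonsensitized dogs at 24 hr. Their part in the levels of CCL2, CCL8 and CCL13 was not tested.

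The other cells of the skin were followed by short lists of markers, to be read against the shares of all probes called higher at 6 hr (0.405%) and 24 hr (0.174%) in sensitized dogs, lower at 24 hr in nonsensitized dogs (0.659%) and higher in the 24 hr interaction (0.6%). Of 5 endothelial genes 3 were measured, and the adhesion molecule SELE, which slows leukocytes on the vessel wall, was higher at 6 hr in sensitized dogs (2.47, limma, adjusted p = 0.000239) and in the 24 hr interaction (2.47, adjusted p = 0.0188). The other 2 were not called in these comparisons, with differences of -0.04 for VWF and 0.34 for KDR at 6 hr in sensitized dogs and interactions of -0.16 and 0.66. All 4 mast cell genes were measured, and HDC, which makes histamine, was higher at 6 hr in sensitized dogs (0.98, adjusted p = 0.0232), lower at 24 hr in nonsensitized dogs (-1.32, adjusted p = 0.000404) and positive in the 24 hr interaction (1.5, adjusted p = 0.0153). These values are of HDC alone. The mean level of the 4 genes overlapped at 6 hr in sensitized dogs, with 8.18 to 8.92 at allergen and 7.89 to 8.83 at saline sites. It also overlapped at 24 hr in nonsensitized dogs, with 8.33 to 8.74 and 8.70 to 9.71. HDC was named by the study's list, which was selected on that interaction, so its direction there is not independent. Of 7 T cell genes 3 were measured, and the costimulatory receptor CD28 was higher at 24 hr in sensitized dogs (0.74, adjusted p = 0.0028) and in the interaction (0.97, adjusted p = 0.00803). CD4 was at 6.71 at allergen and 6.67 at saline sites of sensitized dogs at 24 hr. The mean level of the 3 T cell genes overlapped there, with 6.12 to 6.46 at allergen and 5.86 to 6.23 at saline sites. Of 7 keratinocyte genes 4 were measured, with LOR lower at 24 hr in sensitized dogs (-1.32, adjusted p = 0.0175) and TGM1 lower in the interaction (-0.59, adjusted p = 0.0332), where 46 and 157 of all 45972 probes were called lower. LOR was named by the study's list, which was selected on the 24 hr interaction. The mean level of the 4 keratinocyte genes overlapped in sensitized dogs at 24 hr, with 11.67 to 12.11 at allergen and 11.85 to 12.72 at saline sites. None of 3 granulocyte genes, 3 fibroblast genes, 1 eosinophil gene (CCR3) and 1 dendritic cell gene was called in the allergen minus saline comparisons or the interactions, and no B cell gene passed the filter. Among the granulocyte genes S100A8, a subunit of calprotectin, had differences in sensitized dogs of 2.28 at 6 hr (limma, adjusted p = 0.101) and 2.44 at 24 hr (adjusted p = 0.0892). The mean level of the 3 granulocyte genes was 9.22 to 9.68 at allergen sites and 8.31 to 9.11 at saline sites of sensitized dogs at 24 hr. This gap came from S100A8, since CXCR2 differed by 0.03 and ELANE by -0.02. The part of these cells in the chemokine levels was not tested.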

How the data were processed

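Skin biopsies of 12 dogs were measured on one-color canine arrays (Agilent 8x60K format with catalogue and custom probes). The deposited files hold each array's Cy3 intensity as written by Agilent Feature Extraction 10.7.3.1 per the file headers, and the authors' processed signal, background-corrected by that software, was the starting column. All log2 intensities here were computed from those deposited signals. A table of the whole series held the same signals, as checked value by value.

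Outlier spots (4588 values) were set missing and the 59 arrays were normalized by a reimplementation of vsn in R 4.3.3, after the study's methods. A spot was kept if 5 or more arrays in any 1 group had it well above background (47229 spots, 45972 probes). Spots of a probe were averaged. One linear model with 10 groups was fitted with limma 3.58.1 (statmod 1.5.0), and p-values were adjusted by Benjamini-Hochberg over all probes. A probe was called at an adjusted p below 0.05 and at least 1.5-fold. Plots used matplotlib 3.10.9, and tables pandas 2.3.3 and numpy 2.4.6 under Python 3.11.15. The steps were tested on simulated data. The number of arrays limits the precision.

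Groups were taken from the sample labels. The rule for named genes was: all probes of the listed identifiers of CCL2, CCL8 and CCL13, each gene by its brightest probe; the measured genes of fixed lists of receptors, other CC chemokines, inducers and cell markers; and for each gene the 5 named genes most correlated over the 10 group means. The genes and lists were chosen with earlier results of these data known. Names came from RefSeq (1056 identifiers, assembly UU_Cfam_GSD_1.0, used for names and gene order only) and, for 505 further identifiers, from the study's list. Sequences of probes and genes were not used here, and 1 listed gene is not reported here.

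Residuals of arrays of the same dog correlated at a median of 0.3856 (116 pairs) against -0.0438 for different dogs (1595 pairs), and the labels give the dog, so dog was a replicate block in one alternative. Other alternatives were 75th percentile scaling, normexp (offset 50) with quantile scaling, all 60 arrays without and with array weights, other filters, slide as a fixed or random block, separate fits by time point, the mean over a gene's probes, and each dog left out. The other probe of each gene, and leaving out the 2 arrays with rounded signals, were added after seeing the data.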

Additional observations from a re-analysis of the deposited data

Results flagged for a closer look

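In 5 of 30 sets of a gene in a group, 1 biopsy lay far from the others. Chance gives about 1 in 20 in independent sets. These sets share biopsies, CCL2 and CCL8 correlated at r = 0.984 over the arrays, and the 6 hr saline biopsy of dog 2716 counts under both, so nothing is read from the count. The CCL2 level in untreated skin of nonsensitized dog 2847 was 11.42, next to 10.04. In 6 hr saline-treated skin of nonsensitized dog 2716 CCL2 was 13.70, next to 11.88, and CCL8 was 10.52, next to 8.49. CCL13 in 6 hr saline-treated skin of sensitized dog 2853 was 7.50, next to 6.71. In untreated skin of nonsensitized dog 2716 CCL13 was lowest at 5.04, next to 5.64.

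The allergen minus saline difference at 24 hr differed between the dog groups by a test of the difference itself, by 2.36 for CCL2, 2.46 for CCL8 and 1.42 for CCL13 (limma, adjusted p = 0.0362, 0.0287 and 0.0205). The study named these genes as DEG from the same comparison of these arrays, so the calls repeat its result.

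The 24 hr allergen biopsy of sensitized dog 2839, specimen 14, entered only the alternatives with all 60 arrays. It had the lowest median signal of all arrays (70.97, against 81.7 or more), the lowest share of spots well above background (67.65%) and an array weight of 0.048. The study gave its low signal, its poor correlation with the other arrays and the poor integrity of its RNA as reasons for leaving it out. On the scale of all 60 arrays its CCL2 level was 14.76, within the 13.42 to 15.03 of the other 5 biopsies and above the highest saline site of that group at 14.63. Its CCL8 level was 11.35, within 9.78 to 11.81, with the highest saline site at 11.18. Its CCL13 level was 8.35, above the other 5 (7.47 to 8.24) and above the highest saline site at 7.65.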

How the results depend on the processing

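Of the differences between allergen and saline sites, their interactions and the 0 hr differences, 265 values under alternatives with all dogs kept direction and call, 5 lost the call and 3 changed sign. Sign changes were those of the 24 hr sensitized difference, of CCL2 with all 60 arrays and array weights (-0.030) and with slide as a block (-0.016), and of CCL8 with slide as a block (-0.048). Lost calls were the 24 hr interaction of CCL2 without a filter on dim probes (2.39, limma, adjusted p = 0.0605), that of CCL8 with slide as a block (2.11, adjusted p = 0.0557) and with the other probe (1.73, adjusted p = 0.0848), and the 6 hr sensitized difference of CCL13 in a separate fit (1.13, adjusted p = 0.119) and of CCL8 with the other probe (1.07, adjusted p = 0.213). Outside this tally, 16 comparisons over time were called with slide as a block instead of 30. The causes were not tested. Among the other comparisons these changed sign. For CCL8, allergen 24 hr minus 6 hr in sensitized dogs was -0.0005 with normexp, the 24 hr saline group difference was -0.011 with normexp, -0.030 without a filter, -0.07 with slide as a block and -0.0074 with slide as a random block, and 6 hr saline minus 0 hr in sensitized dogs was -0.044 with array weights, -0.43 and -0.047 with slide as a fixed and random block, -0.17 for the mean of the probes and -0.39 for the other probe, whose 24 hr allergen minus 0 hr value in nonsensitized dogs was -0.77. For CCL2, allergen 24 hr minus 6 hr in sensitized dogs was 0.070 with all 60 arrays and 1.37 and 0.15 with slide as a fixed and random block, and 6 hr saline minus 0 hr in sensitized dogs was -0.30 with slide as a block. For CCL13, allergen 24 hr minus 6 hr in sensitized dogs was -0.01 with array weights. In nonsensitized dogs the allergen 24 hr minus 6 hr differences of CCL2, CCL8 and CCL13 were 0.49, 0.45 and 0.25 with slide as a block.

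Without 1 dog at a time, the 24 hr interaction ranged from 2.00 to 2.66 for CCL2, 2.12 to 2.68 for CCL8 and 1.33 to 1.51 for CCL13, the 24 hr nonsensitized difference of CCL13 from -1.09 to -0.93, and the 6 hr sensitized difference of CCL13 from 1.05 to 1.24. Values that crossed 0 were the 24 hr sensitized difference of CCL2 (-0.21 to 0.46) and CCL8 (-0.083 to 0.48), allergen 24 hr minus 6 hr in sensitized dogs for CCL2 (-0.35 to 0.25), CCL8 (-0.33 to 0.22) and CCL13 (-0.046 to 0.17), 6 hr saline minus 0 hr in sensitized dogs for CCL8 (-0.086 to 0.20), and the 24 hr saline group difference of CCL2 (-0.40 to 0.032) and CCL8 (-0.14 to 0.30).

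The pairing by dog (dog as replicate block) changed no call of CCL2, CCL8 or CCL13 in the allergen minus saline comparisons and interactions, and gave a 24 hr interaction of 2.37 for CCL2 (limma, adjusted p = 0.0125), 2.48 for CCL8 (adjusted p = 0.00844) and 1.39 for CCL13 (adjusted p = 0.00293). Over all probes it raised the share called in the 24 hr interaction from 0.942% to 3.54%, and over the lists the number called from 2 to 5 other CC chemokines, 2 to 8 inducers and 2 to 4 monocyte and macrophage markers.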
